A study of Homo sapiens with 12 samples.

Results

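The genes described are 8 transcription factors of the heart: NKX2-5, GATA4, GATA6, TBX5, TBX20, HAND1, MEF2C and IRX4. They were chosen by symbol, for their known place in the regulatory network of cardiac cells, and all 8 were found among the 17096 genes listed in each library. These factors bind DNA at enhancers of heart genes, often side by side, and several of them regulate each other. GATA4, GATA6, NKX2-5, TBX5 and MEF2C are required early for the heart to form, whereas HAND1 and IRX4 are known as factors of the developing ventricle. IRX4 is used as a marker of ventricular muscle, and TBX5 as a marker of the first heart field and, later, of atrial and left ventricular muscle.

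The libraries come from H7, a human embryonic stem cell line, taken through directed differentiation to cardiomyocytes. At each of days 3, 7 and 15 there were 2 libraries labelled E2A-/-, called libraries labelled knockout here, and 2 wild-type libraries, which makes 12 libraries in 6 groups. The labels call the cells cardiac mesoderm at day 3 and cardiomyocytes at days 7 and 15. E2A is the older name of TCF3, a basic helix-loop-helix factor that binds the E-box motif CANNTG, usually as a dimer. The labels give neither the position of the edit nor the number of clones, and they do not say whether the 2 libraries of a group came from separate cultures. P-values therefore cover no more than the spread of these samples, and that spread may be technical.

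Levels are FPKM, sequenced fragments scaled to transcript length and to the size of the library, so levels of different genes can be set side by side per length. Library sums of FPKM ranged between 577716 and 734958, and all 17096 genes were above 0 in all 12 libraries. The number of fragments per library is unknown. TCF3 mRNA had 146 and 148 FPKM in the libraries labelled knockout at day 3, against 180 and 149 FPKM in wild type. It had 180 and 172 against 135 and 138 FPKM at day 7, and 170 and 108 against 74.4 and 98.2 FPKM at day 15. The targeted mRNA did not pass as lower at any day and passed as higher in the libraries labelled knockout at day 15. Its log2 changes were -0.15 (adjusted p = 0.618), 0.36 (adjusted p = 0.159) and 0.66 (adjusted p = 0.0234), from the limma fit described below. Every direction below therefore rests on the labels. Mitochondrially encoded transcripts held 18.5% to 20.2% of summed FPKM in the libraries labelled knockout at day 7, against 8.14% to 8.55% in wild type. At day 15 they held 13.9% to 14.3% against 26.1% to 26.2%, and at day 3 between 15.7% and 18.8% in all 4 libraries. Their part in the results was not tested, and values rescaled to the sum of the other genes are given where a call of the 8 factors depends on it. RNA of whole cultures was read, so fewer cells of a type and less RNA per cell cannot be told apart.

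The genotype difference of the 8 factors changed its make-up over the 3 days. At day 3 the libraries labelled knockout were lower in GATA4, GATA6, HAND1 and NKX2-5, and at day 7 they were lower in these and in TBX20 and MEF2C. At day 15 only GATA4 and HAND1 of the 8 passed as lower, while TBX5 and IRX4 passed as higher. Summed over the 8 factors, the libraries labelled knockout held 49.7 and 51.6 FPKM at day 3, against 133 and 141 FPKM in wild type. The sums were 240 and 196 against 647 and 659 FPKM at day 7, and 459 and 375 against 452 and 515 FPKM at day 15. The groups thus stood apart at the first 2 days and overlapped at day 15.

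**Figure D1:**
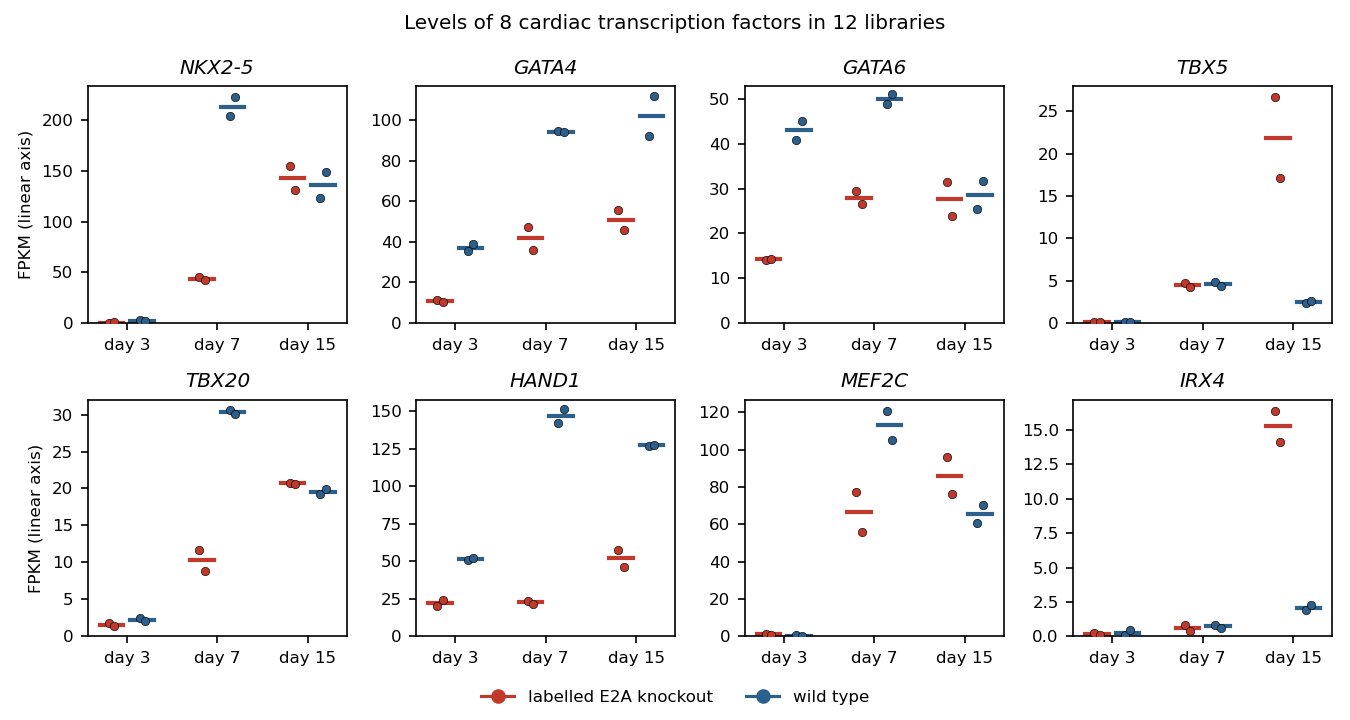
FPKM of the 8 factors by day, on linear axes that start at 0. Points are the 2 libraries of a group and bars their mean, with libraries labelled knockout on the left of each day and wild type on the right. GATA4 and HAND1 lie lower in the libraries labelled knockout at all 3 days, and TBX5 and IRX4 stand apart only at day 15, where the libraries labelled knockout are higher.

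Changes are log2 differences of FPKM + 1 (labelled knockout minus wild type, or later minus earlier day) from limma fitted to all 16295 genes tested, with Benjamini-Hochberg adjusted p-values and 0.05 as the threshold. This scale understates the change of genes with low values. All 8 factors passed the filter of at least 1 FPKM in at least 2 libraries. For TBX5, MEF2C and IRX4 no wild-type library reached 1 FPKM at day 3, and they were tested there because other groups are higher. TBX5 was also under 1 FPKM in both libraries labelled knockout at day 3. IRX4 was under 1 FPKM in every library of days 3 and 7. A lack of a call at such levels does not show equal levels. At day 3, 4 of the 8 passed as lower and 0 as higher, where 14.1% of all genes tested passed as lower and 9.51% as higher. At day 7, 6 passed as lower and 0 as higher (19.9% and 22.1% of all genes). At day 15, 2 passed as lower and 2 as higher (16.2% and 18.9%). The median change of the 8 was -0.75, -0.99 and 0.08 at days 3, 7 and 15, beside -0.01, 0.06 and 0.03 over all genes tested. Scaled to the sum of genes outside the mitochondrial genome, the median of all genes moved to 0.12 at day 3, 0.22 at day 7 and 0.04 at day 15. The share of higher genes among those called then became 62.3% in place of 40.3% at day 3, and 68.2% in place of 52.6% at day 7.

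**Figure D2:**
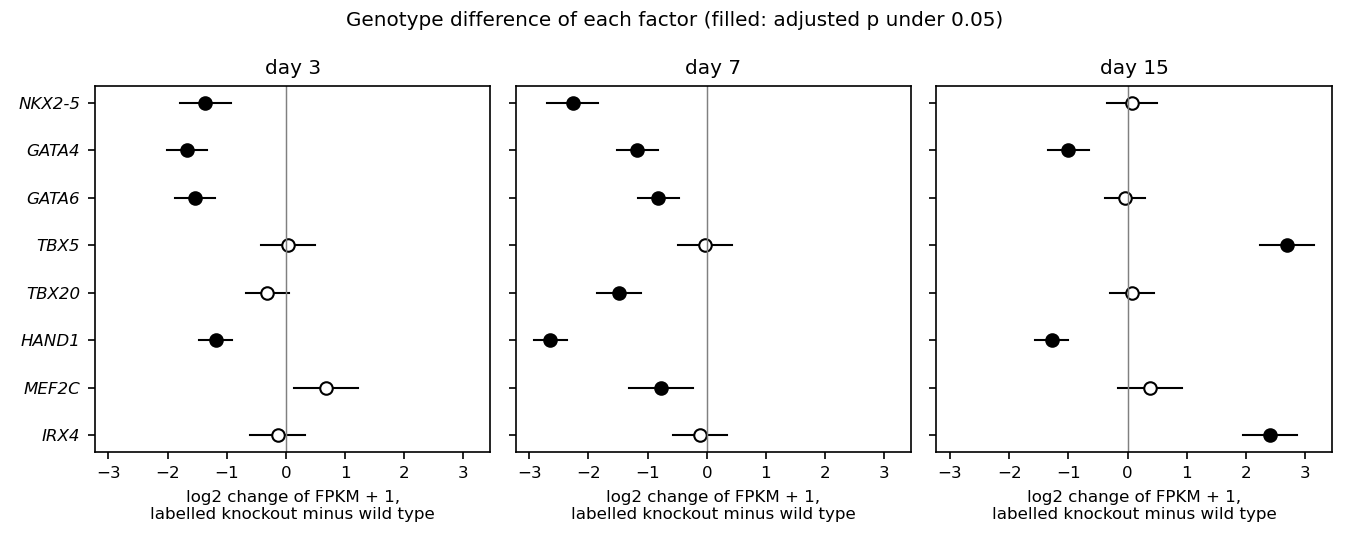
Log2 change of FPKM + 1 (labelled knockout minus wild type) of each factor at days 3, 7 and 15, with 95% confidence intervals from limma; filled points passed at an adjusted p under 0.05. The points of NKX2-5, GATA6 and TBX20 lie below 0 at day 7 and near 0 at day 15, and those of TBX5 and IRX4 lie near 0 at day 7 and above 2 at day 15.

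GATA4 and GATA6 encode zinc finger factors that bind the motif AGATAA and act early in cardiac mesoderm. GATA4 lies on GRCh38 chromosome 8 (11676959 to 11760002, plus strand) and GATA6 on chromosome 18 (22169443 to 22202528, plus strand). GATA4 had 11.4 and 10.5 FPKM in the libraries labelled knockout at day 3, against 35.3 and 38.8 FPKM in wild type. It had 47.3 and 36.2 against 94.7 and 94.2 FPKM at day 7, and 55.5 and 45.6 against 92.5 and 112 FPKM at day 15. Every library labelled knockout lay under every wild-type library of its day, and the mean was 3.39-fold, 2.26-fold and 2.02-fold lower at days 3, 7 and 15. The log2 changes of -1.67 at day 3 (SE 0.15, adjusted p = 7.48e-05) and -1.17 at day 7 (adjusted p = 2.37e-04) passed, as did that at day 15 (adjusted p = 7.85e-04). The wild-type groups of days 7 and 15 overlapped and held the highest levels, and the libraries labelled knockout at days 7 and 15 were next and overlapped in range.

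GATA6 had 14.1 and 14.4 FPKM in the libraries labelled knockout at day 3, against 40.9 and 45.2 FPKM in wild type. It had 29.5 and 26.5 against 48.9 and 51.1 FPKM at day 7, and 31.5 and 24.0 against 25.5 and 31.7 FPKM at day 15. The groups stood apart at days 3 and 7 and overlapped at day 15. The changes of -1.53 (SE 0.15, adjusted p = 1.10e-04) and -0.82 (adjusted p = 0.00188) passed, and that of -0.05 at day 15 did not (adjusted p = 0.842, 95% interval -0.38 to 0.29). In wild type GATA6 was lower at day 15 than at day 7 by 0.79 (adjusted p = 0.00155). In the libraries labelled knockout it was higher at day 7 than at day 3 by 0.93 (adjusted p = 0.00130), while the change of -0.02 between days 15 and 7 did not pass. GATA6-AS1, an antisense gene that shares 240 exonic bases with GATA6, had 44.9 ± 5.89 FPKM in the libraries labelled knockout at day 15 and 40.3 ± 2.27 FPKM in wild type (SD, n = 2 each). It was the more abundant of the pair in both genotypes at that day. At day 3 GATA6-AS1 was lower in the libraries labelled knockout (-1.23, adjusted p = 8.90e-04), as was GATA6. At day 7, where GATA6 passed as lower, GATA6-AS1 did not pass (0.04, adjusted p = 0.884). AC091588.3, another antisense gene, shares 321 exonic bases with GATA6 and was not listed. The strand setting of the counting is not given in the sources used here. Reads of the shared bases cannot be told apart.

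NKX2-5, a homeobox factor that binds AAGTG motifs and marks cardiac progenitors, lies on chromosome 5 (173232109 to 173235357, minus strand). It had 0.106 and 0.424 FPKM in the libraries labelled knockout at day 3, against 2.90 and 1.68 FPKM in wild type, which is a change of -1.36 on the log2 scale (SE 0.19, adjusted p = 8.49e-04). With a pseudocount of 0.1 this change was -2.81, and the mean FPKM was 8.63-fold lower. At day 7 the levels were 44.8 and 42.5 against 204 and 223 FPKM, which is 4.89-fold lower (log2 change -2.26, SE 0.19, adjusted p = 1.79e-05). At day 15 NKX2-5 had 155 and 131 against 123 and 149 FPKM, with overlap. The change of 0.07 did not pass there (adjusted p = 0.792, 95% interval -0.35 to 0.50). Among all listed genes NKX2-5 stood in the top 12.87% to 12.99% of the libraries labelled knockout at day 7, against the top 2.15% to 2.33% in wild type. At day 15 it stood in the top 2.75% to 2.89% and the top 2.92% to 3.50%.

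TBX20 lies on chromosome 7 (35202430 to 35254147, minus strand) and encodes a T-box factor of the myocardium and endocardium. It had 1.87 and 1.35 FPKM in the libraries labelled knockout at day 3, against 2.44 and 2.02 FPKM in wild type (log2 change -0.31, adjusted p = 0.205). At day 7 it had 11.7 and 8.89 against 30.6 and 30.0 FPKM, a 2.94-fold lower mean (-1.48, SE 0.17, adjusted p = 8.80e-05). At day 15 it had 20.7 and 20.7 against 19.2 and 19.9 FPKM, and the change of 0.08 did not pass (adjusted p = 0.752, 95% interval -0.29 to 0.45). TBX20 and NKX2-5 thus had the same order of groups, with wild type at day 7 highest and the libraries labelled knockout at day 15 next.

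HAND1 encodes a basic helix-loop-helix factor of the lateral mesoderm and the left ventricle, which pairs with E proteins such as TCF3, and lies on chromosome 5 (154474972 to 154478264, minus strand). It had 20.4 and 24.1 FPKM in the libraries labelled knockout at day 3, against 51.2 and 52.4 FPKM in wild type. It had 23.8 and 21.6 against 142 and 151 FPKM at day 7, and 57.5 and 46.5 against 127 and 128 FPKM at day 15. All libraries labelled knockout lay below all wild-type libraries of their day. The mean was 2.33-fold, 6.47-fold and 2.45-fold lower at days 3, 7 and 15. The log2 changes were -1.19 (SE 0.13, adjusted p = 1.72e-04), -2.64 (adjusted p = 5.34e-07) and -1.28 (adjusted p = 6.33e-05). At day 7 this was the largest genotype change of the 8 factors. In the libraries labelled knockout the level at day 7 overlapped that at day 3 (log2 change 0.03, adjusted p = 0.886), whereas in wild type HAND1 rose between these days by 1.48 (adjusted p = 7.30e-06). At day 15 the libraries labelled knockout, at 52.0 ± 7.76 FPKM, overlapped the wild-type libraries of day 3, at 51.8 ± 0.911 FPKM (SD, n = 2 each).

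MEF2C, a MADS-box factor that activates genes of the contractile apparatus, lies on chromosome 5 (88717117 to 88904257, minus strand). It had 1.42 and 0.708 FPKM in the libraries labelled knockout at day 3, against 0.574 and 0.0399 FPKM in wild type, and this change of 0.67 did not pass (adjusted p = 0.0723). Scaled to genes outside the mitochondrial genome it was 0.70 and passed (adjusted p = 0.0437). It had 77.4 and 55.7 against 121 and 105 FPKM at day 7 and 96.0 and 76.0 against 60.7 and 70.3 FPKM at day 15. The groups did not overlap at either day, lower in the libraries labelled knockout at day 7 and higher at day 15. The change of -0.77 at day 7 passed (SE 0.24, adjusted p = 0.0272), and that of 0.38 at day 15 did not (adjusted p = 0.247). The call at day 7 was lost on 5 occasions. With values scaled to genes outside the mitochondrial genome the change was -0.57 (adjusted p = 0.0630), and with a pseudocount of 0.1 it was -0.78 (adjusted p = 0.296). It was -0.54 without replicate 2 of the labelled knockout, -0.67 without wild-type replicate 1 and -0.87 without wild-type replicate 2. MEF2C-AS1, an antisense gene with 422 shared exonic bases, did not exceed a group mean of 2.37 FPKM.

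TBX5, a T-box factor, lies on chromosome 12 (114353931 to 114408442, minus strand). It had 0.158 and 0.0999 FPKM in the libraries labelled knockout at day 3, against 0.0942 and 0.119 FPKM in wild type. At day 7 it had 4.72 and 4.29 against 4.88 and 4.41 FPKM, so the groups overlapped at both days (log2 changes of 0.03 and -0.04, adjusted p = 0.938 and 0.902). At day 15 TBX5 had 26.7 and 17.1 FPKM in the libraries labelled knockout, against 2.30 and 2.62 FPKM in wild type. These libraries labelled knockout held the highest values of all 12, and their mean was 8.90-fold higher than that of wild type. The log2 change was 2.70 (SE 0.21, adjusted p = 1.27e-05). The 2 libraries labelled knockout differed from each other, but the call held with any 1 library left out, with changes of 2.39 or more. Between days 7 and 15 TBX5 rose by 2.02 in the libraries labelled knockout (adjusted p = 8.15e-05) and fell by 0.71 in wild type (adjusted p = 0.0147). The fall in wild type was lost without replicate 1 of day 7 (-0.65) or of day 15 (-0.64). TBX5-AS1, which shares 252 exonic bases with TBX5, was not analysed here.

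IRX4, a homeobox factor of the Iroquois family, lies on chromosome 5 (1877413 to 1887236, minus strand). It had 0.235 and 0.0808 FPKM in the libraries labelled knockout at day 3, against 0.120 and 0.449 FPKM in wild type. At day 7 it had 0.842 and 0.404 against 0.862 and 0.625 FPKM, again with overlap (log2 changes of -0.14 and -0.11, adjusted p = 0.676 and 0.691). At day 15 it had 16.4 and 14.1 against 1.89 and 2.24 FPKM. Both libraries labelled knockout at day 15 were above all other libraries, with a mean 7.39-fold that of wild type (log2 change 2.41, SE 0.21, adjusted p = 2.66e-05). IRX4 rose between days 7 and 15 by 3.33 in the libraries labelled knockout (adjusted p = 4.05e-06) and by 0.81 in wild type (adjusted p = 0.00763). The rise in wild type was lost without replicate 2 of wild-type day 7 (0.72, adjusted p = 0.0574). TBX5 and IRX4 were the least abundant of the 8 factors in both wild-type libraries at day 15.

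Sequence windows around the start of the gene as RefSeq gives it, 250 bases before it to 50 bases after it, were read from RefSeq on GRCh38.p14 for 6 of the 8 factors, all but NKX2-5 and GATA4. They are shown for TBX5 and IRX4, higher together at day 15, and for HAND1 and GATA6, lower together at days 3 and 7. Each runs 5′ to 3′ on the strand of its gene, and capitals mark the E-box CANNTG, the motif bound by E2A. The RefSeq starts are not those of the gene places above, which are from GENCODE. The windows of TBX5, IRX4 and MEF2C lie wholly inside those gene places, and the other 3 extend beyond them.
TBX5, chr12:114407963-114408262, minus strand: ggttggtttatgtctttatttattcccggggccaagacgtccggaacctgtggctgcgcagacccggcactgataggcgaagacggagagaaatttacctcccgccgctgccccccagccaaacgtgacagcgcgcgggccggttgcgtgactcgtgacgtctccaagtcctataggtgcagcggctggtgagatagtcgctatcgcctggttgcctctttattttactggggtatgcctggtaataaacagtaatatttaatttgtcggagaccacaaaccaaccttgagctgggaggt
IRX4, chr5:1886896-1887195, minus strand: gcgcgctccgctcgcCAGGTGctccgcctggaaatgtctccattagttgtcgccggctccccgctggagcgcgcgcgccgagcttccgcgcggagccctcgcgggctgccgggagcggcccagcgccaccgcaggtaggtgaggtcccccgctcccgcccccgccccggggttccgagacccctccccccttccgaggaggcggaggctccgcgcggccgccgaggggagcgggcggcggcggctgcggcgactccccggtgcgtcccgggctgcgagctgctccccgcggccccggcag
HAND1, chr5:154478178-154478477, minus strand: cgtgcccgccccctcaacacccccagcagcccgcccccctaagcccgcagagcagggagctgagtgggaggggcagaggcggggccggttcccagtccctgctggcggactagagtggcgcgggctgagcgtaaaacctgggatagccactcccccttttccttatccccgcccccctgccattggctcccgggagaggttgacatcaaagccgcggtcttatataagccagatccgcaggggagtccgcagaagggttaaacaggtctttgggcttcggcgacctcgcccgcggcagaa
GATA6, chr18:22169339-22169638, plus strand: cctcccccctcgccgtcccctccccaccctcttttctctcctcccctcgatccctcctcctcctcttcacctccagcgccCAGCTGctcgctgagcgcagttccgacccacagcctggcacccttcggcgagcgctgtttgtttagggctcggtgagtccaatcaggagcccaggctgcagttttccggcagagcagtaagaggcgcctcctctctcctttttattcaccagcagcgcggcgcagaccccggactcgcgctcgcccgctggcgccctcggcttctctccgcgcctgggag
The IRX4 window held 1 E-box, CAGGTG, at position -235, and the GATA6 window held 1, CAGCTG, at position -170. The MEF2C window held 1, CACTTG, at position 12. Positions are those of the motif's first base, counted from the RefSeq start, with negative values before it, so that of IRX4 still lies inside the GENCODE gene. No E-box was found in the windows of TBX5, TBX20 and HAND1. An E-box was present in 61.7% of the 16502 windows of listed genes and in 68.7% of all 35116 windows, both strands searched. Of the motifs of the factors themselves, AAGTG for NKX2 factors was found 3 times in the MEF2C window, where 38.7% of listed genes' windows held it; 1 of the 3 overlaps the E-box. The form AGATAA of the GATA motif (6.06% of listed genes' windows) and the form AGGTGT of the T-box motif (9.45%) were in none of the 6. Other forms of these motifs were not searched. A match or its lack in these windows describes the letters only.

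The day course differed between the genotypes. Between days 3 and 7, 6 of the 8 factors rose in the libraries labelled knockout and 6 rose in wild type, and 0 fell in either. The background of rising genes was 17.3% in the libraries labelled knockout and 21.1% in wild type. The 6 were not the same, since GATA6 passed in the libraries labelled knockout and not in wild type (0.21), and HAND1 the other way round. NKX2-5 rose by 5.15 in the libraries labelled knockout and by 6.05 in wild type, and MEF2C by 5.04 and 6.47. GATA4 rose by 1.83 and 1.33, TBX20 by 2.11 and 3.28, and TBX5 by 2.28 and 2.35. IRX4 did not pass in either genotype (0.48 and 0.45).

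Between days 7 and 15, 5 of the 8 rose and 0 fell in the libraries labelled knockout, where 13.3% of all genes rose and 15.1% fell. In wild type 1 rose and 5 fell, where 25.5% of all genes rose and 26.8% fell. In the libraries labelled knockout NKX2-5 rose by 1.68, TBX20 by 0.95 and HAND1 by 1.15, beside the rises of TBX5 and IRX4. In wild type NKX2-5 fell by 0.65, TBX20 fell by 0.61 and MEF2C fell by 0.78, beside GATA6 and TBX5. These wild-type falls were small, and apart from that of GATA6 each was lost when some wild-type library was left out. NKX2-5 was at -0.59 without replicate 2 of day 7 and at -0.52 without replicate 1 of day 15, and scaled to genes outside the mitochondrial genome it was at -0.46 (adjusted p = 0.0524). TBX20 was at -0.59 and -0.62 without either replicate of day 7 and at -0.58 without replicate 1 of day 15. MEF2C was at -0.68 without replicate 1 of day 7 and at -0.68 without replicate 1 of day 15. Without 1 such library the count of falls was as low as 1. HAND1 in wild type (-0.20) and GATA4 in both genotypes (0.28 in the libraries labelled knockout, 0.11 in wild type) did not pass.

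The change of the genotype difference from one day to the next was tested directly, as the difference between days minus the same in wild type. From day 3 to day 7 it passed for 5 of the 8 factors, lower at day 7 for HAND1 (-1.45, adjusted p = 5.56e-04), TBX20 (-1.17), MEF2C (-1.44) and NKX2-5 (-0.90), and higher for GATA6 (0.71). The background was 8.90% of genes lower and 11.3% higher. From day 7 to day 15 it passed as higher for 7 of the 8, all but GATA4 (0.17), where 16.6% of genes passed as higher and 15.2% as lower. The values were 2.73 for TBX5 (adjusted p = 1.35e-04), 2.52 for IRX4, 2.34 for NKX2-5, 1.56 for TBX20, 1.36 for HAND1, 1.15 for MEF2C and 0.77 for GATA6. Of the calls from day 3 to day 7, that of GATA6 was lost without any one of the 8 libraries (0.64 to 0.79). That of NKX2-5 was lost without any but the first replicates of day 3 (-0.96 to -0.62 in the losses), and with a pseudocount of 0.1 its value was 0.53. That of MEF2C was lost without wild-type replicate 2 (-1.14) or labelled knockout replicate 1 (-1.19) of day 3, and without wild-type replicate 1 (-1.34) or labelled knockout replicate 2 (-1.21) of day 7. From day 7 to day 15 the calls of GATA6 (0.58 to 0.80) and MEF2C (0.92 to 1.25) were lost without either wild-type replicate or labelled knockout replicate 2 of day 7, and without replicate 1 of either genotype of day 15. The day 7 libraries enter both of these tests.

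Set against wild type at day 7 rather than at day 15, the libraries labelled knockout at day 15 were lower in 5 of the 8 factors and higher in 2, with 19.5% of all genes lower and 19.7% higher. HAND1 was lower by a log2 change of -1.49 (52.0 ± 7.76 FPKM in the libraries labelled knockout at day 15, 147 ± 6.24 FPKM in wild type at day 7). GATA4 was lower by -0.89 (50.6 ± 6.999 against 94.4 ± 0.358 FPKM) and GATA6 by -0.84 (27.8 ± 5.33 against 50.03 ± 1.56 FPKM). NKX2-5 (-0.58, 143 ± 16.6 against 213 ± 12.9 FPKM) and TBX20 (-0.53, 20.7 ± 0.0421 against 30.3 ± 0.394 FPKM) passed narrowly. Both were lost without either wild-type library of day 7 or without replicate 2 of the labelled knockout, and TBX20 also without its replicate 1; the values lay between -0.70 and -0.46 for NKX2-5 and between -0.54 and -0.52 for TBX20. Scaled to genes outside the mitochondrial genome they were -0.38 and -0.34 and did not pass. TBX5 was higher by 1.99 and IRX4 by 3.22, and MEF2C did not pass (-0.40). The libraries labelled knockout at day 15 thus passed the test against wild type of day 7 for 7 of the 8 factors and against wild type of day 15 for 4. All levels are means ± SD of 2 libraries.

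Ratios of pairs of factors within a library do not depend on its scaling. GATA4 over GATA6 was 1.76 and 1.902 in the libraries labelled knockout at day 15, against 3.63 and 3.53 in wild type. At day 7 it was 1.60 and 1.37 against 1.94 and 1.84, and at day 3 0.805 and 0.732 against 0.862 and 0.859. The ratio was higher at each later day in both genotypes, and its groups did not overlap at any day. TBX5 over TBX20 was 0.403 and 0.482 against 0.160 and 0.147 at day 7, and 1.29 and 0.828 against 0.119 and 0.132 at day 15. HAND1 over NKX2-5 was 0.371 and 0.354 in the libraries labelled knockout at day 15, against 1.03 and 0.857 in wild type. At day 3 NKX2-5 was near its lowest level, and this ratio, 192 and 56.8 against 17.6 and 31.3, spread widely within each group. These ratios are given as a description, without a test.

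**Figure D3:**
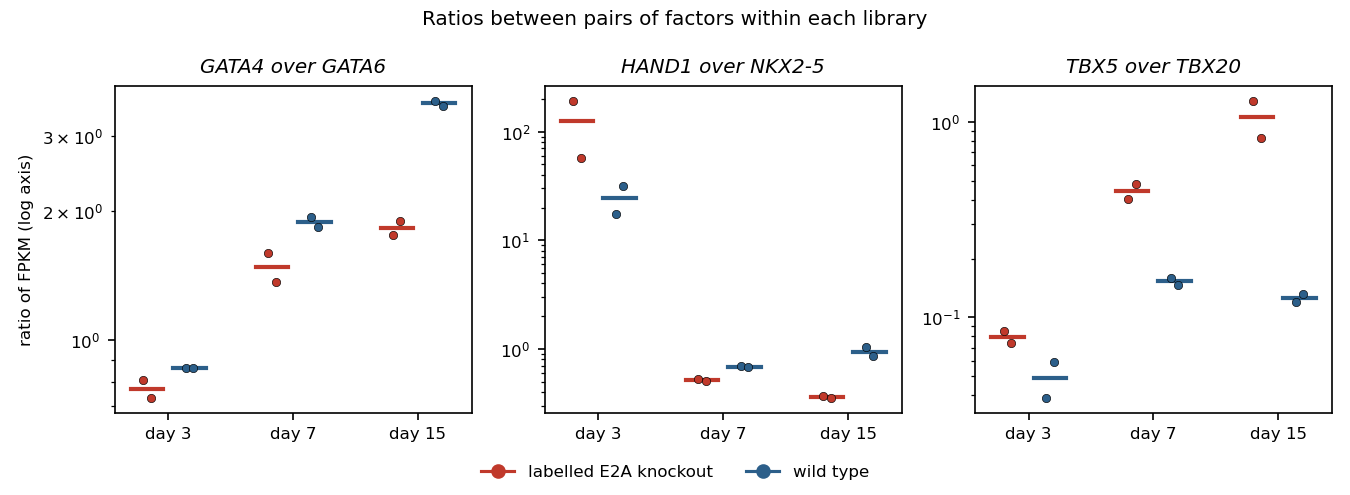
Ratio of FPKM between pairs of factors within each library by day, on log axes. Points are libraries and bars group means, libraries labelled knockout on the left and wild type on the right of each day. At day 15 GATA4 over GATA6 and HAND1 over NKX2-5 lie lower, and TBX5 over TBX20 lies higher, in both libraries labelled knockout than in both of wild type.

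IRX4 shares a cluster on the short arm of chromosome 5 with IRX2 and IRX1, other Iroquois homeobox factors, with gaps of 858.6 kb from IRX4 to IRX2 and 844.4 kb from IRX2 to IRX1. IRX1 and IRX2 were already higher in the libraries labelled knockout at day 3. IRX1 had 50.9 ± 3.91 FPKM there and 6.08 ± 0.393 FPKM in wild type at day 3, 35.7 ± 1.73 and 4.88 ± 0.327 FPKM at day 7, and 21.4 ± 3.997 and 1.22 ± 0.0396 FPKM at day 15 (SD, n = 2 each). The changes of 2.87, 2.64 and 3.33 all passed. IRX2 had 63.4 ± 2.81 and 9.59 ± 0.187 FPKM at day 3, 29.02 ± 1.41 and 5.65 ± 1.10 FPKM at day 7, and 16.9 ± 0.618 and 1.46 ± 0.235 FPKM at day 15, with changes of 2.60, 2.18 and 2.86 that passed. The means of both were lower at each later day in both genotypes, whereas those of IRX4 were higher at each later day. IRX3 and IRX5, of the second Iroquois cluster on chromosome 16, were higher at day 15 by 1.70 (47.1 ± 0.0718 against 14.1 ± 4.41 FPKM) and by 1.64 (9.37 ± 0.227 against 2.41 ± 1.03 FPKM). At day 7 neither passed (0.14 and 0.28). At day 3 IRX3 was lower by a log2 change of -1.01 and IRX5 did not pass (-0.44). These directions held under both rescalings of the libraries.

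**Figure D4:**
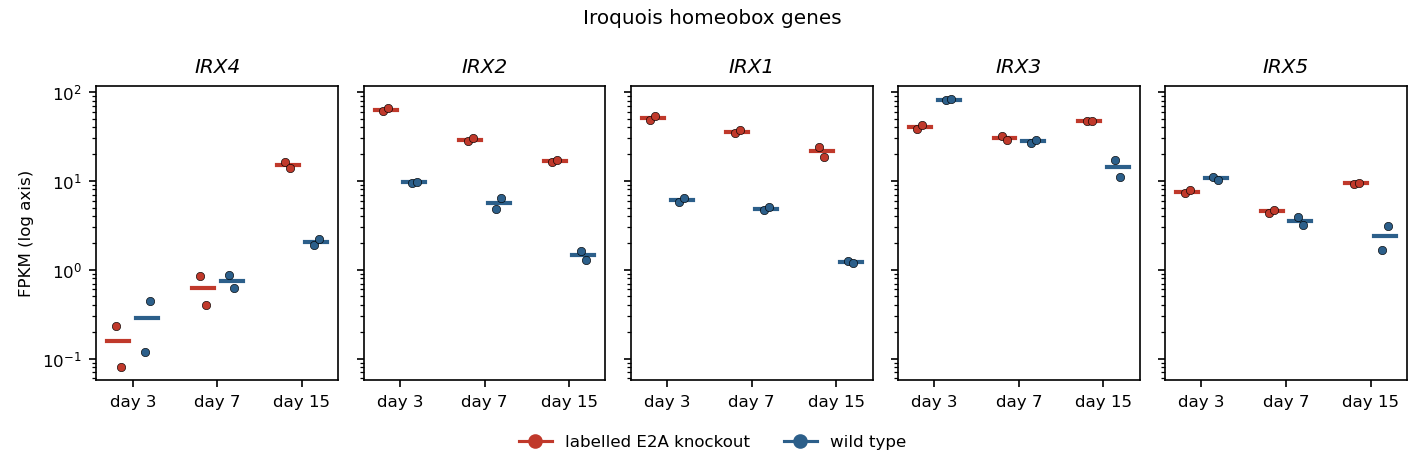
FPKM of 5 Iroquois genes by day on a shared log axis. Points are libraries and bars group means, libraries labelled knockout on the left and wild type on the right of each day. IRX1 and IRX2 are higher in the libraries labelled knockout at all 3 days, and IRX4 at day 15.

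Of 23 other cardiac transcription factors and cofactors, 18 were listed and tested. Of these 3 were higher and 4 lower at day 3, 3 higher and 11 lower at day 7, and 7 higher and 6 lower at day 15, with medians of -0.18, -0.81 and -0.04. Over all genes tested the higher made up 9.51%, 22.1% and 18.9% at the 3 days, and the lower made up 14.1%, 19.9% and 16.2%. The 4 lower at day 3 and the 3 higher at day 7 are shares of these 18 that lay near or below those. Among the members with the smallest adjusted p were IRX1 and IRX2 at all 3 days, ISL1 at day 3 and IRX3 at day 15. ISL1, a factor of second heart field progenitors, had 1.70 ± 0.0632 FPKM in the libraries labelled knockout at day 3 and 5.43 ± 0.553 FPKM in wild type (log2 change -1.25; SD, n = 2 each), and IRX3 is given above.

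Of 22 heart genes known as targets of the 8 factors, 18 were listed and tested. At day 7, 15 of them were lower and 1 higher, with a median of -1.94, and at day 15, 9 were lower and 4 higher, with a median of -0.59. At day 3, 3 were lower and 1 higher (median -0.09). The counts at day 3 and the 4 higher at day 15 lay near the shares over all genes (14.1% lower and 9.51% higher at day 3, 18.9% higher at day 15). The shares over all genes were 19.9% lower and 22.1% higher at day 7, and 16.2% lower at day 15. At day 3 the smallest adjusted p were those of ACTC1, cardiac actin (-1.47), TNNI3, cardiac troponin I (-0.55), and TNNC1, troponin C (-0.65). At day 7 they were those of NPPA, the atrial natriuretic peptide (2.49 ± 0.573 FPKM in the libraries labelled knockout, 78.0 ± 5.75 FPKM in wild type), MYH7, the slow and ventricular myosin heavy chain (0.593 ± 0.0596 and 30.2 ± 1.31 FPKM), and TNNC1 (-3.43). At day 15 they were those of MYH7 (25.9 ± 5.68 and 428.8 ± 47.1 FPKM, -4.01), TNNI3 (-2.23) and NPPA (39.9 ± 0.333 and 164 ± 24.4 FPKM, -2.00). NKX2-5, TBX20, GATA6 and MEF2C thus had levels that did not differ past the threshold at day 15. Of this list MYH7 and NPPA were among the 9 lower at that day, and MYH6 was among the 4 higher (0.38). All levels are means ± SD (n = 2 each).

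Of 18 genes that induce or mark cardiac mesoderm, 17 were listed and tested. Of these 2 were higher and 8 lower at day 3, 1 higher and 10 lower at day 7, and 4 higher and 6 lower at day 15, with medians of -0.79, -0.84 and -0.36. The 2 and 4 higher at days 3 and 15 lay near the shares over all genes, 9.51% and 18.9%. The share of higher genes at day 7 was 22.1%, and those of lower genes were 14.1%, 19.9% and 16.2% at days 3, 7 and 15. At day 3 BMP2, a ligand that induces cardiac factors in the chick embryo, had 14.8 ± 0.375 FPKM in the libraries labelled knockout and 41.3 ± 2.94 FPKM in wild type (-1.42). APLNR, a receptor of mesoderm, was lower (-1.70), and SFRP1, a secreted WNT inhibitor, was higher (1.17). MESP1, the bHLH factor at the start of cardiac mesoderm, had 4.60 ± 0.884 and 10.3 ± 1.55 FPKM and did not pass (-1.02, adjusted p = 0.0599). At day 7 BMP4 (-1.36), FGF10 (-2.02) and WNT11 (-3.38), which are ligands, had the smallest adjusted p. At day 15 these were TMEM88, a WNT pathway inhibitor of cardiac progenitors (-1.05), APLNR (1.17) and CER1, a secreted NODAL antagonist (-1.71).

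Markers of other cell types moved with the genotype beside the factors, and their part in the results was not tested. The shares of all genes called at each day, 9.51% to 22.1% in each direction, are the background of these counts. Most genes of the cardiomyocyte list are also among the heart genes known as targets above, so the counts of these lists are not separate results. Of 9 cardiomyocyte markers 0 were higher and 1 lower at day 3, with a median log2 change of 0.22, 8 were lower at day 7, and at day 15, 6 were lower and 1 higher. Their summed level was 11.4 and 11.8 FPKM in the libraries labelled knockout at day 3, against 13.1 and 14.03 FPKM in wild type. It was 1261 and 1140 FPKM in the libraries labelled knockout at day 7, against 6900 and 6936 FPKM in wild type, and 4077 and 3381 against 10073 and 11020 FPKM at day 15. Of 9 endoderm markers, a cell type that also uses GATA4 and GATA6, 7 were lower at day 3, 8 at day 7 and 3 at day 15, where 1 was higher. The endoderm sum was 346 and 388 against 502 and 501 FPKM at day 3, 272 and 262 against 617 and 645 FPKM at day 7, and 335 and 303 against 458 and 499 FPKM at day 15. Of 9 neural markers, in a lineage that expresses Iroquois genes, 6 were listed and 5 tested, and the sum below is over the 6 listed. Of the 5 tested, 4 were higher and 1 lower at day 3, and 3 were higher and 0 lower at days 7 and 15. The neural sum was 540 and 535 against 360 and 352 FPKM at day 3, 461 and 444 against 259 and 264 FPKM at day 7, and 247 and 239.6 against 203 and 226 FPKM at day 15. The defining neural and stem cell gene SOX2, singled out after its values were seen, had 201 ± 11.2, 155 ± 2.90 and 47.7 ± 11.2 FPKM in the libraries labelled knockout at days 3, 7 and 15, against 44.6 ± 2.79, 21.1 ± 0.157 and 7.79 ± 1.495 FPKM in wild type (SD, n = 2 each). SOX2 is counted in both the neural and the pluripotency list and is part of both sums. At day 15 the group means of SOX2 differed by more FPKM than those of the neural sum. The neural sum therefore does not show that the other neural markers were higher.

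The other marker lists were smaller or moved less evenly. Counts of 1 among the 7 endothelial or the 5 pluripotency markers are near the shares over all genes. Of 7 endothelial markers 0 were higher and 5 lower at day 7, and 4 were higher and 1 lower at day 15, with 0 and 1 at day 3. Of 5 smooth muscle markers 0 were higher at any day, and 2, 3 and 4 were lower at days 3, 7 and 15. Of 5 pluripotency markers 3 were higher and 1 lower at days 3 and 7, and 2 higher and 1 lower at day 15. The pluripotency sum was 2578 and 2474 FPKM in the libraries labelled knockout at day 3, against 2313 and 2288 FPKM in wild type. It was 1228 and 1143 against 816 and 797 FPKM at day 7, and 465 and 433 against 119.9 and 139 FPKM at day 15. Of 2 skeletal muscle markers tested, 1, 2 and 2 were lower. Of 2 epicardial and fibroblast markers tested, 1, 1 and 0 were lower and 0 were higher. No listed marker was at 0 in any library, but this holds for every listed gene, so it says nothing about the cell types present. Listed were 6 of 9 neural, 7 of 10 endothelial, 3 of 8 epicardial and fibroblast and 2 of 6 skeletal muscle markers. Also listed were 9 of 10 cardiomyocyte, 9 of 11 endoderm, 5 of 5 smooth muscle and 5 of 6 pluripotency markers. Levels of the markers not listed are unknown.

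**Figure D5:**
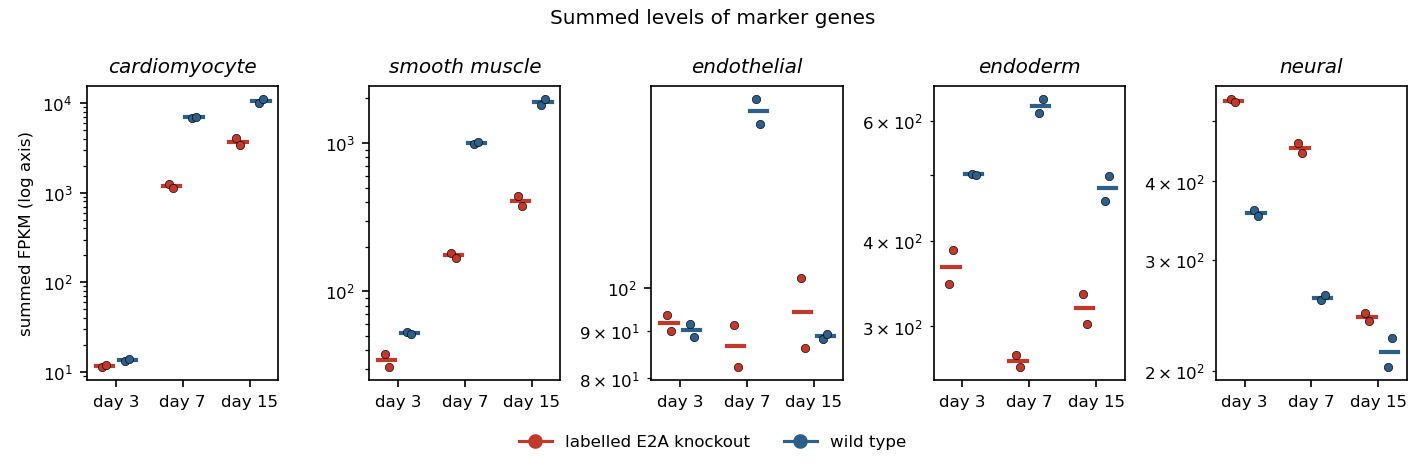
Summed FPKM of marker genes of 5 cell types by day, on log axes of their own. Points are libraries and bars group means, libraries labelled knockout on the left and wild type on the right of each day. Cardiomyocyte and smooth muscle sums are lower in the libraries labelled knockout at all 3 days. At day 3, 1 of 9 cardiomyocyte markers passed as lower. Neural sums, of which SOX2 is a large part of the genotype difference, are higher at all 3 days.

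The genes whose pattern was most like that of a factor were taken by Pearson's r of log2(FPKM + 1) over the 12 libraries, among genes that reach a mean of 5 FPKM in some group. The libraries fall into 6 groups that share day and genotype, so r is a description and has no p. MEF2C was most like MYH6, the atrial myosin heavy chain (r = 0.995), MYOCD, a coactivator of muscle genes (r = 0.989), and ADAMTS9 (r = 0.986). NKX2-5 was most like NEDD9 (r = 0.992), TBX20 (r = 0.990) and TMEM106C (r = 0.988), and TBX20 was most like MAP1A (r = 0.992), YPEL2 (r = 0.990) and NKX2-5. IRX4 was most like SYNPO2 (r = 0.990), NPR3, a natriuretic peptide clearance receptor (r = 0.986), and TRH, which encodes thyrotropin-releasing hormone (r = 0.983). At day 15 TRH had 30.6 ± 1.78 FPKM in the libraries labelled knockout and 2.22 ± 0.450 FPKM in wild type, and SYNPO2 14.99 ± 2.86 and 2.14 ± 0.0829 FPKM (SD, n = 2 each). TBX5 was most like DLX5 (r = 0.970), PARM1 (r = 0.964) and RTN4RL1 (r = 0.959). GATA4 was most like PCDH7 and CGNL1 (both r = 0.987) and SIPA1L2 (r = 0.984). HAND1 was most like ELOB (r = 0.991), REXO2 (r = 0.981) and TRAPPC1 (r = 0.980), and GATA6 like AP1S1 (r = 0.973), VPS37B (r = 0.959) and BBC3 (r = 0.955). Among the factors themselves r between TBX5 and IRX4 was 0.844, and the lowest r of all 28 pairs was 0.00901, between GATA6 and IRX4.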

How the data were processed

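RNA extracted with Trizol (1 ug per library) was read on a HiSeqX10, per the labels' protocols. The authors deposited 1 value per gene and library, taken here as FPKM. That unit was inferred from the values, whose sums differ between libraries. BWA and hg38 (GRCh38) are named in the submitters' processing notes. For the quantifier, its annotation and the strand setting: not given in the sources used here. Low values were checked for whole fragments on 863 genes with a single transcript of at least 1500 bases. Only 46.2% to 75.0% of them lay within 0.1 of a whole number, so no reads were recovered, depth stays unknown and no count model was used.

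Tests were limma 3.58.1 (trend, R 4.3.3) on log2(FPKM + 1), with genes at 1 FPKM or more in at least 2 libraries (16295 kept, 801 left out). A model of 6 group means over 12 libraries (6 residual degrees of freedom) gave 10 contrasts, two-sided, with Benjamini-Hochberg adjustment over the genes tested. The code was tested on simulated data. The 8 factors, the gene lists and the tests were chosen with earlier results of these data known. The text names the 8 factors, TCF3, up to 3 genes of each list with the smallest adjusted p at each day, and the 3 genes most alike to each factor; the other Iroquois genes, antisense genes, MESP1 and SOX2 were added after their values were seen. A gene that this rule names is not reported here. Alternatives were 2 rescalings, 2 other filters (none, 5 FPKM), a pseudocount of 0.1, limma without trend, a fit to only the groups compared, the replicate number as a block, and leaving out each library. Replicate libraries correlated at r between 0.970 and 0.989 and shared no identical set of values. Deviations of same-numbered libraries of the 2 genotypes correlated at 0.0374, 0.0239 and -0.122 at days 3, 7 and 15, so the numbers were not taken as pairs. Gene places are those of GENCODE on GRCh38, 1-based.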

Additional observations from a re-analysis of the deposited data

Results flagged for a closer look

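The genotype difference of a factor changed between neighbouring days past the threshold (limma, adjusted over all 16295 genes) for 12 of the 16 tests of the 8 factors. Over all genes tested, 8.90% passed as lower and 11.3% as higher from day 3 to day 7. The shares from day 7 to day 15 were 15.2% and 16.6%. From day 3 to day 7 the genotype difference moved down for HAND1 (-1.45, adjusted p = 5.56e-04), TBX20 (-1.17, adjusted p = 0.00710), MEF2C (-1.44, adjusted p = 0.0158) and NKX2-5 (-0.90, adjusted p = 0.0421), and up for GATA6 (0.71, adjusted p = 0.0408). From day 7 to day 15 it moved up for TBX5 (2.73, adjusted p = 1.35e-04), IRX4 (2.52, adjusted p = 2.28e-04), NKX2-5 (2.34, adjusted p = 2.31e-04), TBX20 (1.56, adjusted p = 9.77e-04), HAND1 (1.36, adjusted p = 4.75e-04), GATA6 (0.77, adjusted p = 0.0208) and MEF2C (1.15, adjusted p = 0.0273). For NKX2-5, TBX20, HAND1, GATA6 and MEF2C the libraries labelled knockout were lower at day 7, and the upward move brought all but HAND1 to no called difference at day 15. Wild-type changes enter these moves, with -0.79 for GATA6, -0.78 for MEF2C, -0.65 for NKX2-5, -0.61 for TBX20 and -0.20 for HAND1. In the libraries labelled knockout GATA6 (-0.02) and MEF2C (0.37) did not pass between these days. NKX2-5 (1.68), TBX20 (0.95) and HAND1 (1.15) rose there. At day 7 there was no called difference for TBX5 or for IRX4, which was under 1 FPKM in every library of that day. The libraries labelled knockout were higher in both at day 15. In wild type over the same days TBX5 fell by 0.71 and IRX4 rose by 0.81, and both enter these values. Lost in some alternatives were NKX2-5, GATA6 and MEF2C from day 3 to day 7, and GATA6 and MEF2C from day 7 to day 15. For NKX2-5 from day 3 to day 7 the direction depended on the pseudocount, with 0.53 at a pseudocount of 0.1. Its mean FPKM in the libraries labelled knockout was 8.63-fold lower at day 3 and 4.89-fold lower at day 7. Groups of 2 libraries were too small to look for single outlying libraries.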

How the results depend on the processing

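Of the 14 genotype calls of the 8 factors, 13 held in all alternatives that could be run, MEF2C at day 7 being the exception; of 56 calls over all 10 comparisons, 43 did. At day 3, 1 factor (MEF2C) passed as higher when scaled to genes outside the mitochondrial genome, with a pseudocount of 0.1 and with the replicate block (0.67, adjusted p = 0.0273). With a library left out that count was 0 to 1. The block also ended the calls of NKX2-5 (-0.90, adjusted p = 0.0518) and GATA6 (0.71, adjusted p = 0.0504) for the change of the genotype difference from day 3 to day 7, so 0 factors were then higher there, as without trend and with any library left out (0 to 0); the factors lower there were 2 to 4 with a library left out. With the wild-type numbers of day 15 crossed in the block, chosen after seeing the data, 2 factors were higher and 2 lower at day 15 and 5992 genes were called. Fitted on the compared groups alone, 3657 genes in place of 5723 were called between genotypes at day 15, and 2084 in place of 4628 between days 15 and 7 in the libraries labelled knockout. In wild type 3 factors in place of 5 fell after day 7 with a pseudocount of 0.1 (1 to 5 with a library left out), and 0 to 1 rose. The libraries labelled knockout at day 15 were lower than wild type of day 7 in 3 factors in place of 5 with the pseudocount of 0.1, and in 3 with the nuclear scaling (3 to 4 with a library left out).

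With a library left out, called genes numbered 1990 to 2503 in place of 3849 between genotypes at day 3, 4498 to 5241 in place of 6852 at day 7 and 3803 to 5524 in place of 5723 at day 15. They numbered 2947 to 3284 and 2902 to 4897 between days 7 and 3 and days 15 and 7 in the libraries labelled knockout, 1920 to 2558 for the change of the genotype difference from day 3 to day 7, and 3929 to 6195 for the labelled knockout at day 15 against wild type of day 7. Signs turned for 1 called value, NKX2-5 from day 3 to day 7 (0.53 with a pseudocount of 0.1), and otherwise for changes near 0. With nuclear scaling these were TBX5 at day 7 (0.13), TBX5 from day 3 to day 7 (0.088) and GATA4 from day 7 to day 15 (-0.029). With median-ratio scaling they were HAND1 between days 7 and 3 (-0.026) and GATA6 between days 15 and 7 (0.013), both in the libraries labelled knockout. With a library left out, genotype differences ranged over -0.0085 to 0.066 for TBX5 and -0.33 to 0.045 for IRX4 at day 3, -0.097 to 0.025 for TBX5 and -0.31 to 0.083 for IRX4 at day 7, and -0.063 to 0.21 for NKX2-5 and -0.24 to 0.14 for GATA6 at day 15. They ranged over -0.030 to 0.24 for GATA4 after day 7 in wild type, -0.085 to 0.15 for HAND1 before and -0.21 to 0.17 for GATA6 after day 7 in the labelled knockout, -0.17 to 0.22 for IRX4 from day 3 to day 7 and -0.017 to 0.36 for GATA4 from day 7 to day 15. The causes were not tested. Under the median-ratio scaling 3 factors and under the nuclear scaling 1 had another order of the 6 groups. A pseudocount does not enter the levels, and a filter at 5 FPKM or a fit without the groups where a factor is high gave no value for some low factors.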

Other observations

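Other heart factors, singled out after their values were seen, also differed in the libraries labelled knockout at day 15. HEY1 and HEY2, Notch-driven bHLH repressors of atrial and ventricular muscle, had 14.5 ± 1.29 and 8.69 ± 0.0443 FPKM there, against 3.49 ± 0.785 and 4.22 ± 0.592 FPKM in wild type. The log2 changes were 1.80 (adjusted p = 2.08e-04 with limma) and 0.90 (adjusted p = 0.00335). NR2F2, a nuclear receptor known as an atrial factor, had 52.6 ± 1.96 FPKM in the libraries labelled knockout and 26.7 ± 6.05 FPKM in wild type (0.97, adjusted p = 0.00447). HOPX, a homeodomain cofactor of cardiomyocyte maturation, had 0.886 ± 0.696 FPKM in the libraries labelled knockout and 10.4 ± 1.63 FPKM in wild type (-2.64, adjusted p = 1.00e-04). TBX2 and TBX3, repressors in non-chamber muscle, had 28.3 ± 0.401 and 25.0 ± 4.48 FPKM in the libraries labelled knockout, against 57.6 ± 1.48 and 48.9 ± 1.20 FPKM in wild type (adjusted p = 5.18e-04 and 8.24e-04). All of these changes at day 15 passed, all levels are means ± SD of 2 libraries, and both rescalings left the direction of each at day 15 as it was. At earlier days NR2F2 was higher (1.15) and HEY2 lower (-0.78) at day 7, HEY1 was lower at day 3 (-0.83), TBX3 was lower at days 3 and 7 (-1.51 and -1.17), and TBX2 and HOPX were lower at day 7 (-1.50 and -0.85).

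The atrial and ventricular myosin heavy chains differed in opposite directions at day 15. MYH6 had 873 ± 123 FPKM in the libraries labelled knockout and 667 ± 49.5 FPKM in wild type (0.38, adjusted p = 0.0392), whereas MYH7 was lower (-4.01), and IRX4, known from chick and mouse as a factor of ventricular gene expression, was higher. At day 7 both myosins were lower in the libraries labelled knockout (MYH6 -1.89, MYH7 -4.29). Between days 7 and 15 MYH6 fell in wild type (-1.50), which enters its difference at day 15.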
